A study of Mus musculus with 19 samples.

Results

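The 46 genes described here encode the antigen receptor complex of T cells, the coreceptors and costimulatory proteins around it, the receptors of natural killer (NK) cells, and the cytokines and toxic proteins that both cell types release. They were taken by symbol, and all 46 were found among the 32694 gene symbols of the table. RNA of mouse colon was measured by poly-A RNA-seq in 19 mice of 12 weeks of age. Wild-type colon came from 5 mice (3 females and 2 males). Tumours with 1 allele of Apc deleted by Villin-Cre (Apc tumours) came from 7 mice (3 females and 4 males). Tumours labelled as carrying that deletion and, by the same Cre, loss of both alleles of Tgif1 and of Tgif2 (Apc/Tgif tumours) came from 7 further mice (3 females and 4 males). Each library is 1 piece of colon or 1 tumour of 1 mouse. Villin-Cre is active in gut epithelium, so lymphocytes were not the cells it was meant to change. Apc encodes a brake on Wnt signalling, and Tgif1 and Tgif2 encode related homeodomain repressors.

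A T cell recognises antigen through a receptor held at the surface by the CD3 chains, and the kinases Lck and Zap70 pass the signal to adaptor proteins inside the cell. CD4 T cells steer other cells through cytokines, and CD8 T cells and NK cells kill target cells with granzymes, perforin and Fas ligand. In the gut, many of these cells lie within the epithelium or in lymphoid follicles, and innate lymphocytes and gamma delta T cells there are sources of interleukin 17 and interleukin 22.

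Values are the authors' normalized counts, given per library. Totals lay between 34417808 and 44732717 normalized counts per library, and 1 read was worth between 0.744 and 1.44 normalized counts. Of the 46 genes, 41 reached 10 normalized counts in at least 5 libraries and were tested among 18445 genes. Tbx21, Ifng, Il22, Fasl and Ncr1 did not. Tgif1 was listed at 829 to 1181 normalized counts in wild-type colon, 2785 to 4965 in Apc tumours and 251 to 654 in Apc/Tgif tumours. Tgif2 went against its label, with 97.0 to 234 in wild-type colon, 476 to 764 in Apc tumours and 2141 to 3107 in Apc/Tgif tumours, so the genotype of that group is used here as labelled. Total Apc lay between 4168 and 8504 normalized counts in all 19 libraries.

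The tissues differed in more than lymphocytes. The summed level of 6 smooth muscle genes was 176377 to 268684 normalized counts in wild-type colon, 9408 to 17779 in Apc tumours and 6874 to 15308 in Apc/Tgif tumours. The sum of 12 B cell genes was 1323 to 10976 in wild-type colon, 197 to 514 in Apc tumours and 329.6 to 582 in Apc/Tgif tumours, and all 12 fell in each tumour group. Wild-type replicates 1 and 3, both female, had the lowest B cell sums, 1323 and 4473, against 9935 or more in the other 3. The sum of 6 epithelial genes was 406775 to 504946 in wild-type colon and 260020 to 475189 over the tumours. In bulk tissue, fewer cells of a type and less RNA per cell cannot be told apart. The part of these differences in the results was not tested.

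Against wild-type colon, the genes divided in both tumour groups. In Apc tumours, 7 of the 41 tested genes rose and 14 fell (limma, adjusted p under 0.05), and 20 were not called. Over all tested genes 23.9% rose and 25.2% fell in that comparison, and 49.1% were called. In Apc/Tgif tumours, 5 genes rose and 9 fell, against 24.8% and 25.5% of all tested genes. The shares of these genes that rose, 17.1% and 12.2%, were thus below the background, and the shares that fell, 34.1% and 22%, stood above it in Apc tumours and below it in Apc/Tgif tumours. The median log2 fold change of the 41 genes was -0.38 in Apc tumours and -0.26 in Apc/Tgif tumours, and that of all tested genes was -0.01 and 0.00.

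The 5 genes that rose in both comparisons were Cd244, Ctla4, Gzmb, Il17a and Zap70. The 9 that fell in both were Cd160, Cd2, Cd28, Cd4, Cd69, Cd7, Cd8a, Klrb1c and Skap1. The 5 wild-type libraries enter each of these comparisons, so the lists are not independent of each other. Without wild-type replicate 1, the lowest wild-type library for Cd3e, Cd8a, Cd2 and Foxp3 among others, 4 genes rose and 18 fell in Apc tumours, and 5 rose and 11 fell in Apc/Tgif tumours. Between the tumour groups, 1 gene was higher in Apc/Tgif tumours and 2 were lower, against 7.88% and 8.76% of all tested genes. The ranges of the tumour groups did not separate for any of the 46 genes. They did in the higher direction for 2.3% of all tested genes and in the lower direction for 1.77%.

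**Figure D1:**
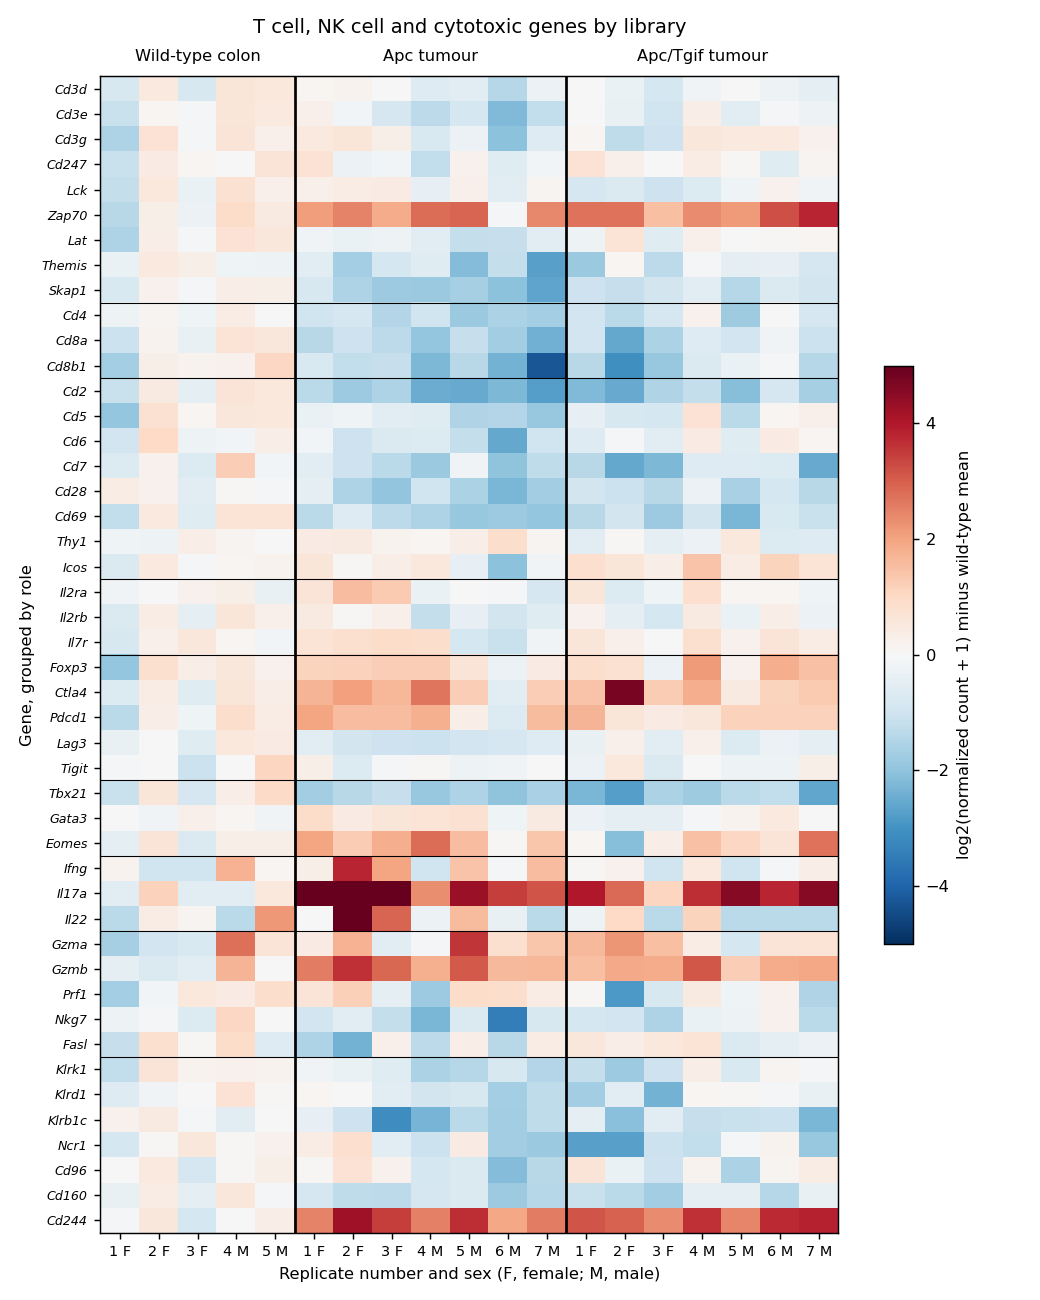
Colour gives log2(normalized count + 1) minus the wild-type mean of the gene, for 46 genes (rows, grouped by role) in 19 libraries (columns, with replicate number and sex). Cd244, Zap70, Gzmb and Il17a stand above wild-type colon in most tumours, Cd2, Cd8a and Skap1 stand below it, and wild-type replicate 1 is the lowest wild-type column for Cd3e, Cd2, Cd8a and Foxp3.

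The T cell receptor complex showed no called change in its chains. Cd3e, a signalling chain of CD3, was listed at 27.8, 66.2, 58.3, 93.4 and 85.4 normalized counts in wild-type colon, at 12.3 to 73.6 (median 32.5) in Apc tumours and at 29.9 to 76.9 (median 51.4) in Apc/Tgif tumours. The 3 groups overlapped. The log2 fold change of Cd3e was -0.89 ± 0.38 (SE, limma adjusted p = 0.061) in Apc tumours and -0.26 ± 0.38 (adjusted p = 0.601) in Apc/Tgif tumours. In Apc tumours it was -1.95 in males alone (adjusted p = 0.00345) and 0.13 in females alone (adjusted p = 0.831). It passed the threshold without wild-type replicate 1 (-1.17, adjusted p = 0.0153), without Apc replicate 1 (-1.12, adjusted p = 0.0178) and without Apc replicate 2 (-1.04, adjusted p = 0.038). The other signalling chains, Cd3d, Cd3g and Cd247, had log2 fold changes between -0.38 and 0.16 in the comparisons with wild-type colon, and none was called.

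Zap70, the kinase that binds the phosphorylated CD3 chains, rose. It was listed at 17.8, 58.2, 38.2, 91.0 and 66.1 normalized counts in wild-type colon, at 46.2 to 368 (median 256) in Apc tumours and at 135 to 681 (median 314) in Apc/Tgif tumours. All Apc/Tgif tumours lay above all wild-type libraries, and so did every Apc tumour but replicate 6, at 46.2. The log2 fold change was 1.99 ± 0.47 (adjusted p = 0.00184) in Apc tumours and 2.54 ± 0.47 (adjusted p = 0.000172) in Apc/Tgif tumours, and 2.34 in Apc tumours without replicate 6. In males alone it was 1.32 in Apc tumours and was not called (adjusted p = 0.215). Its partners were not called. Lck, the kinase that acts before it, was listed at 81.8 to 326 in wild-type colon, 131 to 252 in Apc tumours and 93.5 to 221 in Apc/Tgif tumours, with log2 fold changes of 0.02 (adjusted p = 0.955) and -0.54 (adjusted p = 0.142). Lat, the membrane adaptor that Zap70 phosphorylates, had log2 fold changes of -0.62 (adjusted p = 0.142) and 0.01 (adjusted p = 0.979). Zap70 lies at chr1:36761798-36782818 on the plus strand of GRCm38, with the gene model Gm18828 on the other strand, and reads of overlapping genes cannot be told apart where the counting of strand is not given.

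Skap1, an adaptor that links the T cell receptor to integrin adhesion, fell. Its values were 32.1, 63.9, 51.9, 69.2 and 66.5 normalized counts in wild-type colon, 8.03 to 31.0 (median 14.98) in Apc tumours and 19.6 to 37.9 (median 28.4) in Apc/Tgif tumours. Each Apc tumour lay below each wild-type library, and the Apc/Tgif tumours overlapped both groups. Of the 41 genes, 5 lay wholly below wild-type colon in Apc tumours (Skap1, Themis, Cd4, Cd2 and Cd160) and 0 did in Apc/Tgif tumours, against 15.4% and 16.5% of all tested genes. The log2 fold change against wild-type colon was -1.75 ± 0.29 (adjusted p = 5.01e-05) in Apc tumours and -0.94 ± 0.29 (adjusted p = 0.00998) in Apc/Tgif tumours. Skap1 was also the 1 gene of the 46 that was higher in Apc/Tgif than in Apc tumours, by 0.81 ± 0.26 on the log2 scale (adjusted p = 0.0369), a call that was lost in 8 of the 19 fits that left out 1 library. Themis, which sets the threshold of T cell receptor signalling during thymic selection, was listed at 18.2 to 33.4 in wild-type colon, 2.67 to 15.6 in Apc tumours and 5.71 to 24.7 in Apc/Tgif tumours, and fell by 1.39 ± 0.41 on the log2 scale in Apc tumours (adjusted p = 0.00887). In Apc/Tgif tumours its log2 fold change was -0.68 (adjusted p = 0.179).

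The coreceptors fell. Cd4, the coreceptor of helper and regulatory T cells, was listed at 210.3, 274, 212, 322 and 244 normalized counts in wild-type colon, at 69.0 to 137 (median 89.7) in Apc tumours and at 71.1 to 286 (median 139) in Apc/Tgif tumours. Every Apc tumour lay below every wild-type library, and 2 Apc/Tgif tumours, replicates 4 and 6, lay within the wild-type range. Its log2 fold change was -1.36 ± 0.30 (adjusted p = 0.000928) in Apc tumours and -0.81 ± 0.30 (adjusted p = 0.03) in Apc/Tgif tumours. The second call was lost in 6 of the 19 fits that left out 1 library. It was also lost with equal library totals, quantile normalization, sample quality weights and in males alone. The highest limma adjusted p over all these fits was 0.228. Some gut macrophages also carry Cd4, and the summed level of 10 macrophage genes was 11203 to 15662 in wild-type colon, 14208 to 30016 in Apc tumours and 15904 to 28969 in Apc/Tgif tumours. Its part in the Cd4 result was not tested.

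Cd8a, a chain of the coreceptor of cytotoxic T cells, had 31.7, 77.8, 52.8, 109 and 103 normalized counts in wild-type colon, 12.0 to 32.8 (median 25.4) in Apc tumours and 10.8 to 60.8 (median 34.4) in Apc/Tgif tumours. Of the wild-type libraries only replicate 1, at 31.7, fell within the range of the Apc tumours. The log2 fold change of Cd8a was -1.64 ± 0.37 (adjusted p = 0.00114) in Apc tumours and -1.20 ± 0.37 (adjusted p = 0.0105) in Apc/Tgif tumours. The first call was lost in females alone (-0.82, adjusted p = 0.177) and the second with quantile normalization (-0.87, adjusted p = 0.0603). Cd8b1, the partner chain found on conventional CD8 T cells, was listed at 5.05 to 38.7 in wild-type colon, 0 to 10.4 in Apc tumours and 1.34 to 17.9 in Apc/Tgif tumours. It fell by 1.96 ± 0.62 on the log2 scale in Apc tumours (adjusted p = 0.0132), and in Apc/Tgif tumours its log2 fold change was -1.31 (adjusted p = 0.0864).

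**Figure D2:**
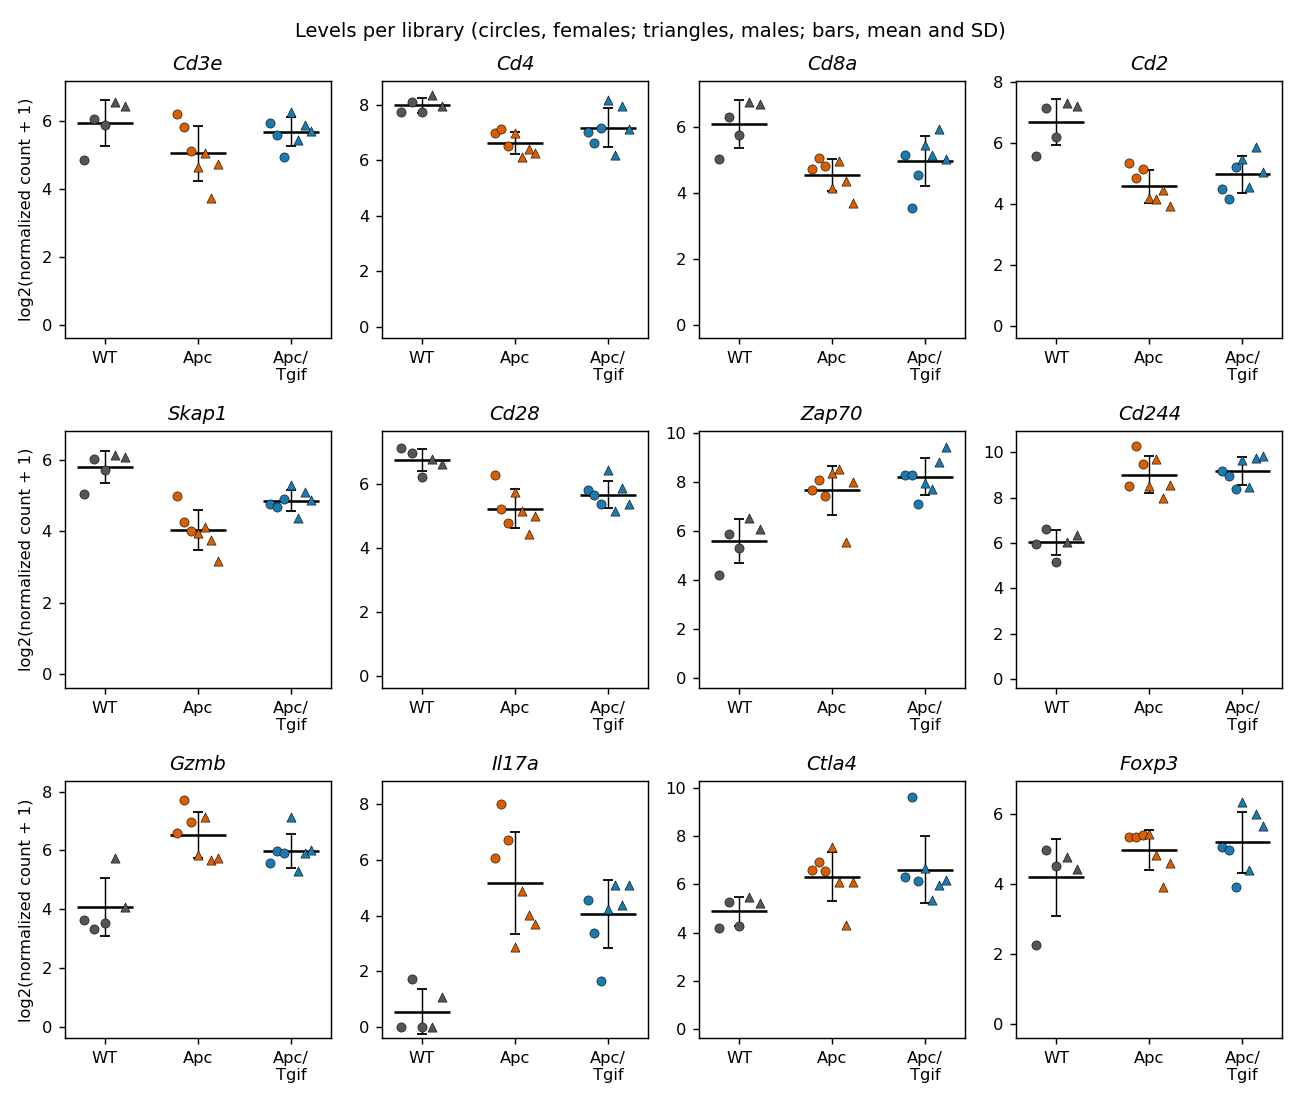
Points are libraries (circles females, triangles males), with log2(normalized count + 1) on the vertical axis and bars for the mean and SD of 5 wild-type, 7 Apc and 7 Apc/Tgif libraries. Cd4, Cd8a, Cd2, Skap1 and Cd28 lie lower in tumours, Zap70, Cd244, Gzmb and Il17a lie higher, and single libraries stand apart in Ctla4, Zap70 and Foxp3.

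Of the 8 adhesion and costimulatory genes, 5 fell and none rose in Apc tumours, and 4 fell and none rose in Apc/Tgif tumours. Over all tested genes 25.2% and 25.5% fell, and 23.9% and 24.8% rose. Cd2, which binds a ligand on antigen-presenting cells and steadies the contact, had 47.0, 141, 72.7, 161 and 147 normalized counts in wild-type colon, 14.2 to 39.6 (median 20.9) in Apc tumours and 17.1 to 57.4 (median 32.1) in Apc/Tgif tumours. The Apc tumours did not overlap wild-type colon, and in Apc/Tgif tumours only replicate 6, at 57.4, reached the wild-type range. Cd2 changed by -2.13 ± 0.37 (adjusted p = 8.95e-05) and -1.74 ± 0.37 (adjusted p = 0.000575), the largest fall among the 41 tested genes in each comparison. Its lowest wild-type values were those of replicates 1 and 3, which also had the lowest B cell sums, 1323 and 4473. The part of the lower B cell sum of tumours in the Cd2 result was not tested.

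Cd28, the main costimulatory receptor of naive T cells, was listed at 138, 123, 72.6, 109.9 and 98.4 in wild-type colon, at 20.7 to 76.0 (median 34.4) in Apc tumours and at 34.2 to 86.1 (median 49.4) in Apc/Tgif tumours. Only 1 tumour of each genotype reached the lowest wild-type value. Cd28 fell by 1.498 ± 0.30 (adjusted p = 0.00038) and by 1.06 ± 0.30 (adjusted p = 0.00597) on the log2 scale. Cd69, a marker of activation and of tissue residence, had 36.1, 118, 55.5, 137 and 135 in wild-type colon, 21.5 to 54.5 (median 28.5) in Apc tumours and 16.5 to 50.3 (median 39.2) in Apc/Tgif tumours, and fell by 1.51 ± 0.37 (adjusted p = 0.00214) and by 1.32 ± 0.37 (adjusted p = 0.00533). Its ranges overlapped because wild-type replicate 1 was as low as the tumours. As for Cd2, wild-type replicates 1 and 3 were the lowest, and the part of the lower B cell sum was not tested.

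Cd7, a surface protein of T and NK cells, was listed at 27.8, 52.5, 27.8, 106 and 41.0 in wild-type colon, 10.4 to 39.0 (median 17.7) in Apc tumours and 6.71 to 28.6 (median 16.3) in Apc/Tgif tumours. It fell by 1.26 ± 0.44 (adjusted p = 0.0228) and by 1.61 ± 0.44 (adjusted p = 0.00466). Cd6, a regulator of T cell activation and adhesion, fell by 1.04 in Apc tumours (adjusted p = 0.0293) and had a log2 fold change of -0.13 in Apc/Tgif tumours (adjusted p = 0.797). Cd5, its relative and a brake on receptor signalling, had log2 fold changes of -0.96 (adjusted p = 0.101) and -0.35 (adjusted p = 0.561).

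Icos, the costimulatory receptor of activated T cells, was among the genes not called, with 42.9 to 100.5 in wild-type colon, 16.1 to 108 in Apc tumours and 88.7 to 190.4 in Apc/Tgif tumours. Its log2 fold change was 0.79 (adjusted p = 0.0855) in Apc/Tgif tumours against wild-type colon and 0.93 (adjusted p = 0.0679) against Apc tumours. Thy1, a surface protein of mouse T cells that fibroblasts and neurons also carry, was lower in Apc/Tgif tumours than in Apc tumours. It had 538 to 806 normalized counts in wild-type colon, 680.3 to 1172 (median 813) in Apc tumours and 399.7 to 909 (median 452) in Apc/Tgif tumours. The tumour groups overlapped through Apc/Tgif replicate 5, at 909. The difference was -0.65 ± 0.18 on the log2 scale (adjusted p = 0.0157). The summed level of 6 fibroblast genes was 77535 to 162090 in Apc tumours and 47440 to 95898 in Apc/Tgif tumours, with Col1a1 and Dcn also lower, and its part in the Thy1 difference was not tested.

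None of the 3 cytokine receptor genes was called in any comparison by limma, and 0 of the 3 had an unadjusted p under 0.05. Over all tested genes 49.1% were called in Apc tumours and 50.3% in Apc/Tgif tumours against wild-type colon, and 16.6% between the tumour groups. Il2ra, the high-affinity subunit for interleukin 2, ranged from 49.96 to 78.4 in wild-type colon, from 35.6 to 191 in Apc tumours and from 39.0 to 116 in Apc/Tgif tumours. Il2rb, a subunit shared with the interleukin 15 receptor, ranged from 60.6 to 155, from 44.3 to 141 and from 55.5 to 139. Il7r, which serves the survival of memory T cells and innate lymphocytes, ranged from 71.8 to 184, from 57.3 to 238 and from 125 to 215. The log2 fold changes of the 3 genes lay between -0.33 and 0.47 against wild-type colon.

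Of the 5 regulatory and inhibitory genes, 2 rose and 1 fell in Apc tumours, and 1 rose in Apc/Tgif tumours. Over all tested genes 23.9% rose and 25.2% fell in Apc tumours, and 24.8% rose in Apc/Tgif tumours. Foxp3, the defining factor of regulatory T cells, had 3.83, 30.6, 22.02, 26.2 and 20.3 normalized counts in wild-type colon, 14.1 to 41.6 (median 39.0) in Apc tumours and 14.1 to 78.9 (median 32.3) in Apc/Tgif tumours. The groups overlapped, and the lowest value was that of wild-type replicate 1. Its log2 fold change was 0.73 ± 0.47 (adjusted p = 0.208) and 0.95 ± 0.47 (adjusted p = 0.104), and without wild-type replicate 1 it was 0.30 (adjusted p = 0.591) and 0.51 (adjusted p = 0.332). In Apc/Tgif tumours Foxp3 passed the threshold with sample quality weights (1.25, adjusted p = 0.0235), with quantile normalization (1.28, adjusted p = 0.023) and without Apc/Tgif replicate 3 (1.18, adjusted p = 0.0479). Foxp3 overlaps Flicr on the same strand and Ppp1r3f and Ccdc22 on the other, so its counts may hold reads of these.

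Relative to Cd3e within a library, Foxp3 was higher in tumours. The mean log2 ratio of Foxp3 to Cd3e was -1.77 ± 0.58 (SD, n = 5) in wild-type colon, -0.08 ± 0.54 (n = 7) in Apc tumours and -0.50 ± 0.52 (n = 7) in Apc/Tgif tumours. The difference from wild-type colon was 1.69 in Apc tumours (two-sided exact permutation p = 0.00126, the smallest that 792 permutations can give, adjusted p = 0.00947 over 15 ratio tests) and 1.27 in Apc/Tgif tumours (exact permutation p = 0.00253, adjusted p = 0.0126). The tumour groups differed by -0.42 (exact permutation p = 0.16, adjusted p = 0.267). Without wild-type replicate 1 the differences from wild-type colon were 1.48 and 1.06. A ratio within a library shows that the genes changed unequally, and not which of them changed.

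Ctla4, the inhibitory receptor that competes with Cd28 for its ligands, was listed at 17.4, 37.3, 18.4, 44.0 and 36.1 normalized counts in wild-type colon, at 18.97 to 189.6 (median 92.7) in Apc tumours and at 39.6 to 784 (median 71.6) in Apc/Tgif tumours. Apc/Tgif replicate 2 held 784, and the other 6 tumours of that group held 39.6 to 103. Ctla4 rose by 1.52 ± 0.59 (adjusted p = 0.0397) in Apc tumours and by 1.81 ± 0.59 (adjusted p = 0.0151) in Apc/Tgif tumours on the log2 scale. Without Apc/Tgif replicate 2 the second value was 1.25 (adjusted p = 0.0262). The first call was lost in 9 of the 19 fits that left out 1 library.

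Pdcd1, the inhibitory receptor PD-1, had 8.83, 29.7, 20.01, 44.5 and 30.8 in wild-type colon, 14.2 to 96.6 (median 71.7) in Apc tumours and 32.0 to 79.3 (median 53.9) in Apc/Tgif tumours. It rose by 1.16 ± 0.45 in Apc tumours (adjusted p = 0.038), a call lost in 7 of the 19 fits that left out 1 library, and its log2 fold change was 0.97 (adjusted p = 0.0772) in Apc/Tgif tumours. Lag3, which binds MHC class II as an inhibitory receptor, went the other way. It was listed at 55.7 to 122 in wild-type colon, 40.1 to 57.2 in Apc tumours and 52.1 to 100.7 in Apc/Tgif tumours, and fell by 0.88 ± 0.23 in Apc tumours (adjusted p = 0.00345). In Apc/Tgif tumours its log2 fold change was -0.29 (adjusted p = 0.305). Tigit, a receptor that competes for Cd96 and Cd226 ligands, had log2 fold changes of -0.18 and -0.16, neither of them called.

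Among the lineage factors, Tbx21, the factor of type 1 helper T cells and NK cells, was listed at 6.31, 22.8, 7.83, 18.7 and 29.6 normalized counts in wild-type colon, 2.84 to 5.97 in Apc tumours and 1.34 to 5.67 in Apc/Tgif tumours. Every tumour value lay below every wild-type value, and the gene was not tested since it reached 10 in 3 libraries. Eomes, its relative, had 6.16, 14.6, 5.05, 11.3 and 11.2 in wild-type colon, 9.32 to 68.5 (median 28.5) in Apc tumours and 1.32 to 65.7 (median 14.6) in Apc/Tgif tumours. It rose by 1.41 ± 0.57 in Apc tumours (adjusted p = 0.0464), and in Apc/Tgif tumours its log2 fold change was 0.46 (adjusted p = 0.52). Gata3, the factor of type 2 helper T cells and type 2 innate lymphocytes, had 42.3 to 56.5 in wild-type colon, 41.6 to 90.6 (median 74.2) in Apc tumours and 33.5 to 67.3 (median 44.8) in Apc/Tgif tumours. It was lower in Apc/Tgif than in Apc tumours by -0.62 ± 0.20 (adjusted p = 0.0401), a call lost in 11 of the 19 fits that left out 1 library. Gata3 overlaps other transcripts on both strands.

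Of the 3 cytokine genes, only Il17a reached the filter. Il17a, the cytokine of type 17 T cells that calls neutrophils to a mucosa, was listed at 0, 2.28, 0, 0 and 1.14 normalized counts in wild-type colon, at 6.33 to 255 (median 28.1) in Apc tumours and at 2.14 to 33.5 (median 19.8) in Apc/Tgif tumours. Every Apc tumour lay above all wild-type libraries, and so did all Apc/Tgif tumours but replicate 3, at 2.14. On the log2 scale Il17a rose by 4.72 ± 0.76 (adjusted p = 4.7e-05) in Apc tumours and by 3.60 ± 0.76 (adjusted p = 0.00062) in Apc/Tgif tumours. It passed the filter through tumour libraries alone, since no wild-type library reached 10, and the value depends on the 1 added before the logarithm. Ifng, the type 1 cytokine that activates macrophages, was listed at 0 to 5.75 in wild-type colon, 0 to 27.2 (median 4.33) in Apc tumours and 0 to 1.79 in Apc/Tgif tumours. Il22, which acts on epithelium, was listed at 0 to 10.2, 0 to 78.3 (median 1.49) and 0 to 4.47. Apc replicate 2, a female, held the highest value of all 3 cytokines, 255, 27.2 and 78.3.

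The promoter of Il17a is shown since it rose most among the 41 tested genes described here, beside those of Gzmb, which also rose, and of Klrb1c and Cd8a, which fell. Each line gives the 250 bases before the RefSeq start (GRCm38.p6), 5′ to 3′ on the strand of the gene. Capitals mark TGTGGT, the core letters that Runx factors bind, searched on both strands, and no capitals overlap. The windows are chr1:20730655-20730904 on the plus strand for Il17a, chr14:56262335-56262584 on the minus strand for Gzmb, chr6:128788642-128788891 on the minus strand for Klrb1c and chr6:71373177-71373426 on the plus strand for Cd8a.
Il17a: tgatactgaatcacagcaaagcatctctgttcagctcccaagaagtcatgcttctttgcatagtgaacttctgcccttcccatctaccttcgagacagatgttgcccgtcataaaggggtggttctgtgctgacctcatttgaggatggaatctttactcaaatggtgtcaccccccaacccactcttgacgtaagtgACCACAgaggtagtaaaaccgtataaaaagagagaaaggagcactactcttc
Gzmb: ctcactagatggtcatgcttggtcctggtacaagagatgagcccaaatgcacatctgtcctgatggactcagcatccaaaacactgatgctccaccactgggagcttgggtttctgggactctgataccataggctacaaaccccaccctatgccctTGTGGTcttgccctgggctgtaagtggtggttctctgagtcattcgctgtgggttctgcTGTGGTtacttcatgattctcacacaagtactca
Klrb1c: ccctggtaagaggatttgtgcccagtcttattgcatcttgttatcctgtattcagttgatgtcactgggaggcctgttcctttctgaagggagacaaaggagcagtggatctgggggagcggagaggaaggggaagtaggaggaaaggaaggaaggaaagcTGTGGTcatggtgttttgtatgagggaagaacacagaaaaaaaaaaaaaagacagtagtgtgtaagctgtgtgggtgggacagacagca
Cd8a: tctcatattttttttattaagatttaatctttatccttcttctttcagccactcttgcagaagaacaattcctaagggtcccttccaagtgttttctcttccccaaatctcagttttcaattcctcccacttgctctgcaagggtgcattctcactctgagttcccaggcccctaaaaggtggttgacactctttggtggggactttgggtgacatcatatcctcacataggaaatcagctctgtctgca
Il17a has a Runx match starting 52 bases before the start, on the opposite strand. Gzmb has Runx matches at 93 and 34 bases before the start, Klrb1c has one at 89 bases, and the Cd8a window has none. Promoter windows were found for 32 of the 46 genes, with 39 starts in all. A Runx match was in 15 of the 39 windows (38.5%), against 14% of 32536 windows of all genes. The letters ATCAAAG, which Tcf and Lef factors bind, were in 1 window (2.6%), that of Cd3d, against 3.2%. A match is a run of letters and was not tested for binding.

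Of the 4 tested cytotoxic effector genes, Gzmb rose in both tumour groups and Nkg7 fell in Apc tumours. Over all tested genes 23.9% rose and 25.2% fell in Apc tumours, and 24.8% rose and 25.5% fell in Apc/Tgif tumours. Gzmb encodes granzyme B, the protease that triggers death in target cells. Wild-type libraries held 11.4, 9.13, 10.4, 53.2 and 15.9 normalized counts, Apc tumours 50.2 to 210.1 (median 96.6) and Apc/Tgif tumours 38.6 to 141 (median 59.8). Wild-type replicate 4, at 53.2, was the only one within the tumour ranges. Gzmb rose by 2.44 ± 0.44 (adjusted p = 0.000157) in Apc tumours and by 1.90 ± 0.44 (adjusted p = 0.00145) in Apc/Tgif tumours on the log2 scale. In males alone the values were 1.17 (adjusted p = 0.168) and 1.17 (adjusted p = 0.147). Mouse mast cells can also express Gzmb. The sum of 12 mast cell genes was 1707 to 2238 in wild-type colon, 1293 to 3794 in Apc tumours and 1928 to 9332 in Apc/Tgif tumours. Of the 12, 8 and 10 were called higher, against 23.9% and 24.8% of all tested genes. Kit, also a gene of pacemaker cells of the gut wall, was called lower in both groups and Cma1 in Apc tumours, and Kit at 1301 to 1659 made up most of the wild-type sum. Its part in the Gzmb result was not tested.

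Gzma, a granzyme stored with Gzmb, varied widely, with 3.79, 6.85, 7.83, 100.6 and 22.8 in wild-type colon, 9.39 to 179.7 (median 25.6) in Apc tumours and 7.30 to 69.8 (median 23.4) in Apc/Tgif tumours. Its log2 fold changes were 0.97 ± 0.74 (adjusted p = 0.293) and 0.80 ± 0.74 (adjusted p = 0.389). In females alone it passed the threshold, at 1.68 (adjusted p = 0.0343) and 2.91 (adjusted p = 0.00228), and in males alone the values were -0.26 and -1.49. Leaving out 1 library gave up to 1.72 and 1.56. Prf1, which forms the pore through which granzymes enter, had highest values of 12.6 (wild-type colon), 15.7 (Apc tumours) and 8.96 (Apc/Tgif tumours), with log2 fold changes of 0.16 (adjusted p = 0.849) and -0.76 (adjusted p = 0.323). Nkg7, a granule membrane protein, had 13.7 to 47.6 in wild-type colon, 1.15 to 15 in Apc tumours and 7.08 to 26.4 in Apc/Tgif tumours, and fell by 1.46 ± 0.48 in Apc tumours (adjusted p = 0.0165). Fasl, the ligand of the death receptor Fas, stayed under 10 in every library, with 8.66 at most. Granzymes and the Klr receptors below belong to families of close copies, so their counts are uncertain.

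The receptor Fas itself differed between the tumour groups. It was listed at 294 to 499.5 normalized counts in wild-type colon, 202 to 296 in Apc tumours and 1135 to 2284 in Apc/Tgif tumours. The ranges of the tumour groups did not meet, which was so for 2.3% of all tested genes in that direction. Fas was higher in Apc/Tgif than in Apc tumours by 2.55 ± 0.16 on the log2 scale (adjusted p = 6.57e-09), fell in Apc tumours against wild-type colon by 0.63 ± 0.17 (adjusted p = 0.00547) and rose in Apc/Tgif tumours by 1.92 ± 0.17 (adjusted p = 2.97e-08).

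The receptors of NK cells and intraepithelial lymphocytes held both the steepest rise after Il17a and further falls. Cd244, a receptor of the SLAM family on NK and CD8 T cells, had 62.2, 97.1, 34.4, 64.4 and 82.2 normalized counts in wild-type colon, 249 to 1242 (median 379.8) in Apc tumours and 336 to 929.9 (median 574) in Apc/Tgif tumours. The lowest tumour stood above the highest wild-type library. No overlap in this direction was found for 14% of all tested genes in Apc tumours and 14.1% in Apc/Tgif tumours. The log2 fold change was 2.98 ± 0.39 (adjusted p = 3.59e-06) and 3.15 ± 0.39 (adjusted p = 1.33e-06), and it was called in females and in males alone. Mast cells and other myeloid cells also carry Cd244, and the mast cell gene Cpa3 was listed at 4.57 to 19.1 in wild-type colon, 15.2 to 232 in Apc tumours and 92.4 to 485 in Apc/Tgif tumours. The part of mast cells in the Cd244 result was not tested.

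Cd160, a receptor of intraepithelial lymphocytes and NK cells, had 22.6, 38.6, 21.3, 44.3 and 27.9 in wild-type colon, 7.71 to 17.4 (median 11.8) in Apc tumours and 8.22 to 23.02 (median 13.3) in Apc/Tgif tumours. The Apc tumours did not overlap wild-type colon. It fell by 1.23 ± 0.29 (adjusted p = 0.00174) and by 1.05 ± 0.29 (adjusted p = 0.00555) on the log2 scale, and it overlaps Pdzk1 on the other strand. Klrb1c, the NK1.1 antigen in some mouse strains, had 9.92 to 20.9 in wild-type colon, 0.87 to 11 in Apc tumours and 2.31 to 10.7 in Apc/Tgif tumours, and fell by 1.55 ± 0.43 (adjusted p = 0.00549) and by 1.20 ± 0.43 (adjusted p = 0.0263).

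Klrk1, the receptor NKG2D for stress ligands, had log2 fold changes of -0.95 (adjusted p = 0.0586) and -0.66 (adjusted p = 0.186). Klrd1, which pairs with the NKG2 chains as CD94, had -0.79 (adjusted p = 0.14) and -0.77 (adjusted p = 0.15). Cd96, which binds the poliovirus receptor, had -0.51 (adjusted p = 0.374) and -0.14 (adjusted p = 0.822). None of these 3 was called. Ncr1, the receptor NKp46 that marks NK cells and some innate lymphocytes, was listed at 2.53, 5.73, 8.72, 5.76 and 6.69 in wild-type colon, 0.81 to 10.7 in Apc tumours and 0 to 6.47 in Apc/Tgif tumours, with 2 tumours at 0, and was not tested gene by gene.

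**Figure D3:**
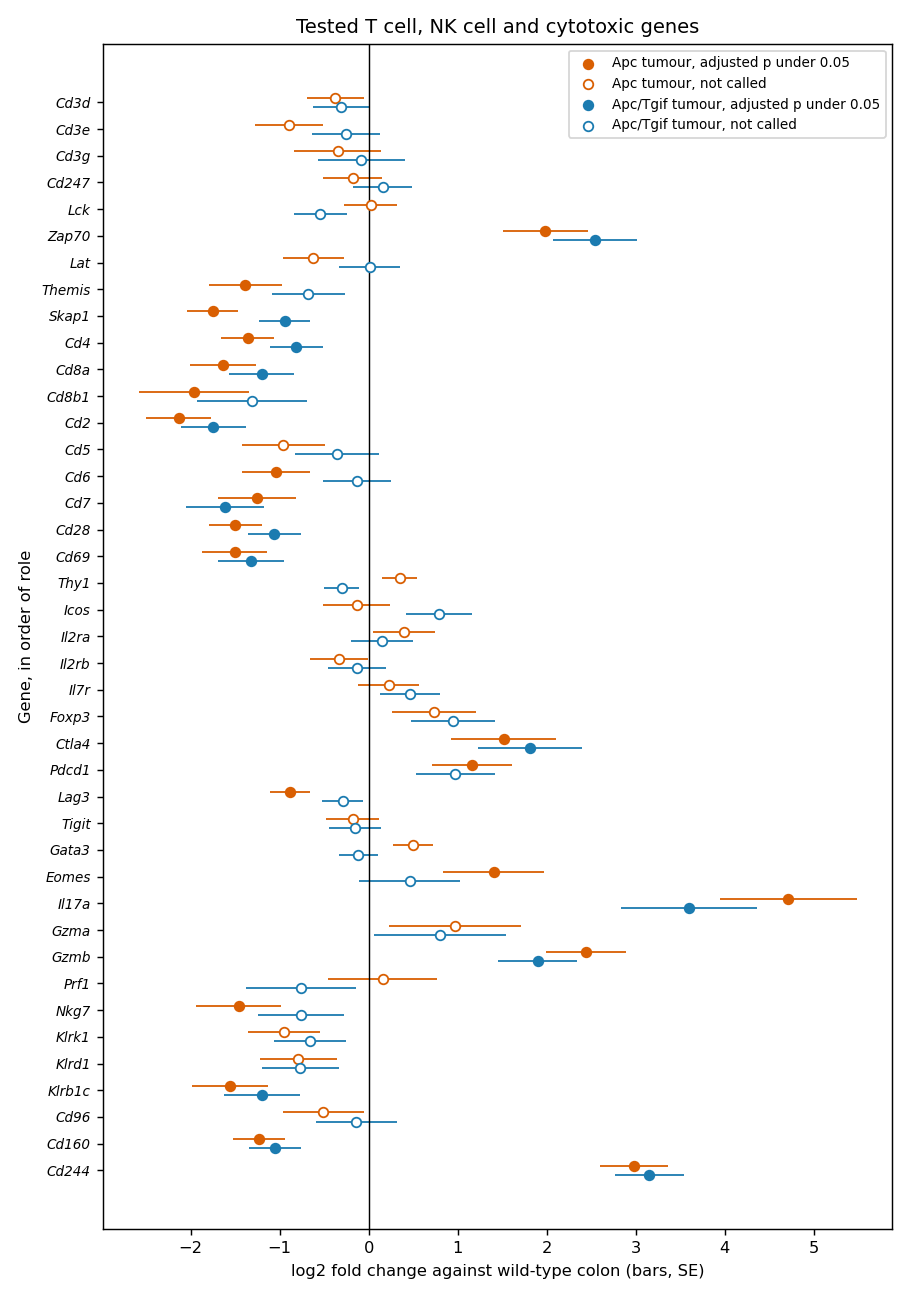
Points give the log2 fold change of 41 tested genes against wild-type colon (horizontal axis, bars SE), for Apc and Apc/Tgif tumours, with filled points for adjusted p under 0.05. Il17a, Cd244, Gzmb and Zap70 reach furthest to the right in both, and Cd2 reaches furthest to the left, at -2.13 and -1.74.

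Ratios between genes within a library were compared next. The log2 ratio of Cd3e to Ptprc, the common leukocyte antigen, was -4.76 ± 0.21 (SD, n = 5) in wild-type colon, -4.75 ± 0.46 (n = 7) in Apc tumours and -4.24 ± 0.22 (n = 7) in Apc/Tgif tumours. All Apc/Tgif tumours lay above all wild-type libraries. The difference was 0.52 between Apc/Tgif tumours and wild-type colon (exact permutation p = 0.00126, adjusted p = 0.00947), 0.01 between Apc tumours and wild-type colon (exact permutation p = 0.967, adjusted p = 0.967) and 0.51 between the tumour groups (exact permutation p = 0.0186, adjusted p = 0.0699). Ptprc itself fell by 0.91 ± 0.31 in Apc tumours (limma adjusted p = 0.0215) and by 0.79 ± 0.31 in Apc/Tgif tumours (adjusted p = 0.0421) on the log2 scale. As the common leukocyte antigen, Ptprc covers B cells too. B cell sums were 1323 to 10976 in wild-type colon, 197 to 514 in Apc tumours and 329.6 to 582 in Apc/Tgif tumours. The part of the lower B cell sum of tumours in the Cd3e to Ptprc ratio was not tested.

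Cd8a to Cd4 gave mean log2 ratios of -1.86 ± 0.54 (wild-type colon), -2.07 ± 0.55 (Apc tumours) and -2.19 ± 0.66 (Apc/Tgif tumours), and the 3 differences lay between -0.33 and -0.11 with adjusted p of 0.468 or more by exact permutation tests. Gzma to Cd3e was 1.96 higher in Apc tumours than in wild-type colon (exact permutation p = 0.048), with an adjusted p of 0.12. Ncr1 to Cd3e was lower in Apc/Tgif than in Apc tumours by -1.47 (exact permutation p = 0.0233), with an adjusted p of 0.0699. Of the 15 ratio tests, the 3 past an adjusted p of 0.05 were both Foxp3 differences from wild-type colon and the Cd3e to Ptprc difference of Apc/Tgif tumours.

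**Figure D4:**
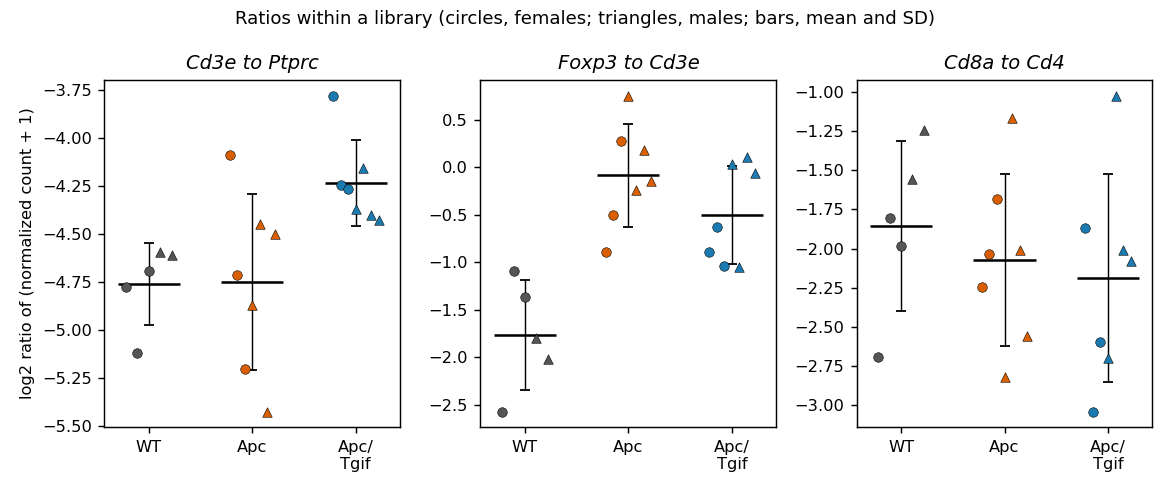
Points are log2 ratios of (normalized count + 1) within a library (circles females, triangles males), with bars for mean and SD. Foxp3 to Cd3e stands higher in tumours than in wild-type colon, Cd3e to Ptprc stands higher in Apc/Tgif tumours, and Cd8a to Cd4 overlaps in all 3 groups.

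Whether the genes varied together from tumour to tumour was asked for 8 pairs over the 14 tumours, after the mean of each tumour group was subtracted. Cd3e and Foxp3 gave Pearson's r of 0.71 (permutation p = 0.00079, adjusted p = 0.00632) and Spearman's rho of 0.63 (permutation p = 0.0138, adjusted p = 0.0434), with r of 0.70 without the 2 tumours farthest from the median of Cd3e. Within females r was 0.82 (n = 6) and within males 0.81 (n = 8), as a description with no p. Sex was not subtracted, and the permutations ignored it. Sex differences within a tumour group therefore enter the values of all 8 pairs, those within 1 sex included. Cd3e and Gzmb gave r of 0.64 (permutation p = 0.0257, adjusted p = 0.096) and rho of 0.71 (permutation p = 0.0163, adjusted p = 0.0434), with r of 0.72 without the 2 farthest, 0.38 in females and 0.78 in males. Cd3e and Cd8a gave r of 0.45 (adjusted permutation p = 0.115) and rho of 0.73 (adjusted permutation p = 0.0387), with r of 0.59 without the 2 farthest, 0.56 in females and 0.55 in males. Cd3e and Cd244 gave r of 0.60 and rho of 0.60, with adjusted permutation p of 0.096 and 0.0757.

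The pairs with markers of other cells were not called. Cd244 with the mast cell gene Cpa3 gave r of 0.33 and rho of 0.28, with adjusted permutation p of 0.362 and 0.422. Gzmb with Cpa3 gave r of 0.37 and rho of 0.41, with adjusted permutation p of 0.339 and 0.271. Cd69 with the neutrophil gene S100a9 gave r of 0.02 and rho of -0.12, with adjusted permutation p of 0.961 and 0.704. Cd3e with Cd4 gave r of 0.47 and rho of 0.48, with adjusted permutation p of 0.096 and 0.128. Libraries share depth and tissue make-up, so these values describe joint variation only.

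The difference between Apc/Tgif and Apc tumours depended on sex for 8 of the 41 tested genes (limma, adjusted p under 0.05), against 23.6% of all tested genes. In all 8 the difference was more positive in males than in females, and that was the sign for 37 of the 41 genes, against 49.2% of all tested genes. Il17a had 66.2, 255 and 104 normalized counts in the 3 female Apc tumours, 6.33, 28.1, 15.2 and 12.1 in the 4 male ones, 22.8, 9.40 and 2.14 in female Apc/Tgif tumours and 17.9, 33.4, 19.8 and 33.5 in male ones. Its log2 difference was -3.73 in females and 0.84 in males, which differ by 4.57 ± 0.95 (adjusted p = 0.00359). Cd3g went from 66.6 to 83.2 in female Apc tumours to 21.5 to 57.6 in female Apc/Tgif tumours, and from 12.3 to 43.3 to 63.1 to 80.4 in males, and the sexes differed by 2.60 ± 0.67 (adjusted p = 0.0117).

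Klrk1 and Klrd1 followed the same pattern, with differences between the sexes of 2.20 ± 0.56 (adjusted p = 0.0107) and 2.50 ± 0.56 (adjusted p = 0.00526). The values were 1.79 for Il2ra (adjusted p = 0.0142), 2.98 for Cd8b1 (adjusted p = 0.0258), 1.46 for Il2rb (adjusted p = 0.0267) and 1.54 for Cd2 (adjusted p = 0.0423). Ptprc differed in the same direction, by 1.62 ± 0.40 (adjusted p = 0.00964), and so did Trdc, the constant chain of the gamma delta receptor, by 2.00 ± 0.59 (adjusted p = 0.0219). With 3 females and 4 males in each tumour group, these values rest on few mice. Against wild-type colon, none of the 41 genes had an effect that differed between the sexes in Apc tumours by limma (0.0108% of all tested genes did, 2 of 18445). At an unadjusted p under 0.05, 18 of the 41 did, each with the lower value in males, against 11.6% of all tested genes. In Apc/Tgif tumours 1 did, Gzma, by -4.40 ± 1.14 (adjusted p = 0.0436), against 3.4% of all tested genes.

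**Figure D5:**
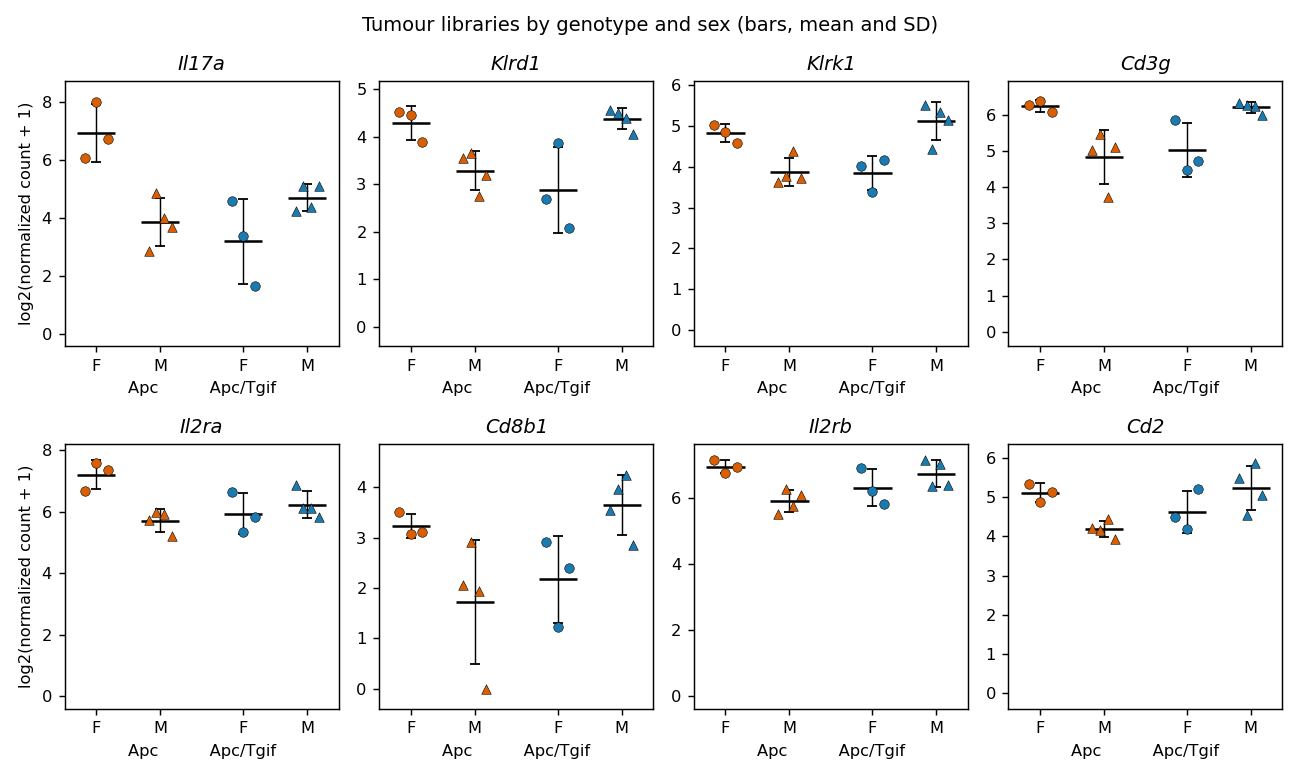
Points are the 14 tumour libraries by genotype and sex (F, female; M, male), with log2(normalized count + 1) on the vertical axis and bars for mean and SD. In each panel female Apc tumours stand above male ones, and the mean of male Apc/Tgif tumours stands above that of female ones.

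Other genes of the same pathways were counted from fixed lists. The share of all tested genes that rose was 23.9% in Apc tumours and 24.8% in Apc/Tgif tumours, and 25.2% and 25.5% fell. Each list count below stands against these shares. Of 23 tested genes of T cell receptor signalling and T cells outside the 46, 5 rose and 7 fell in Apc tumours, and 4 rose and 3 fell in Apc/Tgif tumours. The risers with the smallest p were Tcf7 and Lef1, Wnt effectors that epithelium also expresses, with log2 fold changes of 2.87 and 2.93 in Apc tumours (adjusted p = 1.36e-11 and 5.46e-07) and in Apc/Tgif tumours with 2.99 and 2.72 (adjusted p = 5.67e-12 and 9.8e-07). Grap2, an adaptor that binds Lat, fell by 1.91 (adjusted p = 2.4e-06) in Apc tumours and by 1.21 (adjusted p = 0.000302) in Apc/Tgif tumours, and was higher in the latter than in the former by 0.70 (adjusted p = 0.0318). Cd27, a costimulatory receptor, fell by 1.55 in Apc tumours (adjusted p = 0.000198) and was higher in Apc/Tgif than in Apc tumours by 1.05 (adjusted p = 0.00918).

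Of 7 gamma delta T cell genes, Trdc and Cd163l1 rose in both tumour groups, and Gpr55 rose in Apc/Tgif tumours. Trdc was listed at 13.4 to 26.5 in wild-type colon, 31.3 to 196 in Apc tumours and 33.0 to 121 in Apc/Tgif tumours, with no overlap between wild-type colon and tumours. Its log2 fold change was 2.41 ± 0.40 (adjusted p = 6.68e-05) and 1.72 ± 0.40 (adjusted p = 0.00151).

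Among 16 tested genes of NK cells and innate lymphocytes outside the 46, 6 rose and 4 fell in Apc tumours, and 5 rose and 3 fell in Apc/Tgif tumours. Il1rl1, the interleukin 33 receptor of type 2 innate lymphocytes, mast cells and regulatory T cells, was listed at 88.4 to 172 in wild-type colon, 3084 to 15864.5 in Apc tumours and 952 to 4520.2 in Apc/Tgif tumours. It rose by 5.86 ± 0.42 (adjusted p = 2.72e-09) and by 4.34 ± 0.42 (adjusted p = 8.17e-08), and was lower in Apc/Tgif than in Apc tumours by -1.52 ± 0.38 (adjusted p = 0.00972). The sum of 8 genes common to leukocytes was 3159 to 6416 in Apc tumours. Which cells held the Il1rl1 RNA was not tested. Gzmc, another granzyme gene, passed the filter through tumour libraries alone, since no wild-type library reached 10. It rose by 3.20 ± 0.72 in Apc tumours (adjusted p = 0.00109) and was lower in Apc/Tgif tumours than there by -2.23 ± 0.65 (adjusted p = 0.0227).

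Of 14 receptor and target genes of interleukin 17 and 22, 9 rose and 5 fell in Apc tumours, and 9 rose and 2 fell in Apc/Tgif tumours. Il23a, the subunit of interleukin 23 that sustains type 17 cells, was listed at 3.79 to 11.3 in wild-type colon, 169 to 653 in Apc tumours and 84.4 to 509.7 in Apc/Tgif tumours, and rose by 5.54 ± 0.39 (adjusted p = 1.65e-09) and by 4.53 ± 0.39 (adjusted p = 1.35e-08). S100a8 and S100a9, also the main calgranulins of neutrophils, rose by 9.95 and 9.78 in Apc tumours (adjusted p = 3.43e-10 and 8.38e-11), and 9 of 10 neutrophil genes rose in each tumour group while Ly6g, at 4037 to 9116 most of the wild-type sum, fell. The 5 that fell in Apc tumours were the receptor genes Il22ra2, Il17rc, Il22ra1, Il10rb and Il17ra. Between the tumour groups, Il10rb, a subunit of the interleukin 22 receptor, was higher in Apc/Tgif tumours by 0.52 ± 0.08 (adjusted p = 0.000195), and Il22ra1, its partner, by 0.87 ± 0.21 (adjusted p = 0.00651).

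Of 14 target genes of interferon gamma, none rose and 6 fell in Apc tumours, and 3 fell in Apc/Tgif tumours. Irf1 and Ciita fell in both groups, Ciita by 2.53 ± 0.42 (adjusted p = 6.78e-05) in Apc tumours. B cells and other antigen-presenting cells also express Ciita, and the part of the lower B cell sum in this result was not tested. Gbp3 was higher in Apc/Tgif than in Apc tumours by 2.10 ± 0.48 (adjusted p = 0.00538), and Ido1 was lower by -3.02 ± 0.83 (adjusted p = 0.0171).

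Of 15 tested ligands of the checkpoint, costimulatory, NK and death receptors, Fas included, 2 rose and 7 fell in Apc tumours, and 2 rose and 5 fell in Apc/Tgif tumours. Clec2d, a ligand of the Klrb1 receptors, fell by 1.64 ± 0.17 (adjusted p = 2.72e-07) and by 2.19 ± 0.17 (adjusted p = 4.96e-09). Icosl, the ligand of Icos, fell by 1.07 ± 0.21 in each tumour group (adjusted p = 0.000298 and 0.000275). H2-T23, which presents peptide to Klrd1 and its partners, was higher in Apc/Tgif than in Apc tumours by 1.13 ± 0.21 (adjusted p = 0.00104), and Fgl1, a ligand of Lag3, was lower by -1.98 ± 0.46 (adjusted p = 0.00583).

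Of 11 tested genes of the cytokines that sustain these cells and of their receptors, 1 rose and 5 fell in each tumour group. The 5 were Il15ra, Ifngr1, Il18, Il15 and Il7 in both, and the riser was Ifngr2. Il15ra, which presents interleukin 15 to NK cells and intraepithelial lymphocytes, fell by 1.44 ± 0.20 (adjusted p = 7.7e-06) and by 1.64 ± 0.20 (adjusted p = 1.24e-06). Il18, a cytokine that epithelium also makes, fell by 1.10 ± 0.20 (adjusted p = 0.00017) and by 1.76 ± 0.20 (adjusted p = 6.16e-07), and it was lower in Apc/Tgif than in Apc tumours by -0.66 ± 0.18 (adjusted p = 0.0172). Of 8 genes common to leukocytes, 6 fell in Apc tumours and 3 in Apc/Tgif tumours.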

How the data were processed

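RNA of 19 mouse colon or tumour samples was sequenced as single reads of 75 bases, per the labels. The values used are normalized counts, a signal on a linear scale that the authors deposited as 1 table. The submitters' processing notes name Salmon and the builds GRCm38 and mm10. Neither tool versions nor annotation nor the use of strand is stated in these sources. The values are not whole counts, so no count model was run. A library's low values were whole multiples of 1 step for 83.8% to 87.1% of values (tolerance 0.1 of a count).

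The table was tested after log2(normalized count + 1) with limma 3.58.1 (R 4.3.3). Group and sex were terms, with an intensity trend and robust moderation. Genes needed 10 normalized counts in at least 5 libraries, and Benjamini-Hochberg adjustment ran over 18445 genes, two-sided, at 0.05. A fold change on this scale understates that of low genes. Ratios were tested by exact permutation over samples, and gene pairs with 100000 permutations within tumour group. The limma comparisons between groups were tried on simulated data, with 100 genes altered 2-fold and 100 altered 4-fold. Of the 2-fold genes, 70 were found again for Apc tumours and 58 for Apc/Tgif tumours, each relative to normal colon. Between the tumour groups 61 were found. In the same order, 2.55%, 7.45% and 3.18% of the calls were false. These rates do not cover the sex differences, ratios, gene pairs or promoter search. They may not carry over to the real data, where 49.1% of tested genes were called in Apc tumours. Promoters are from RefSeq (GRCm38.p6), and gene positions from GENCODE (GRCm38) for 45 of the 46 genes.

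The 46 genes and all lists were chosen with earlier results of these data known. Values are given for Cd3e, Cd4, Cd8a, Foxp3, Ncr1, Gzma, Gzmb, Ifng and Il17a, for the 6 called genes with the smallest p per direction and comparison, and for at most 3 genes of each other list per comparison. Some genes of the lists are not reported here.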

Additional observations from a re-analysis of the deposited data

Results flagged for a closer look

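In 4 of 63 groups examined (21 genes in 3 groups each), 1 library stood far from the rest. Chance flags about 1 in 20 groups. Ctla4 held 784 normalized counts in Apc/Tgif replicate 2, against 39.6 to 103 in the other 6 tumours. Foxp3 held 3.83 in wild-type replicate 1, against 20.3 to 30.6. Gzmb held 141 in Apc/Tgif replicate 4, against 38.6 to 63.1. Zap70 held 46.2 in Apc replicate 6, against 173 to 368.

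The effect differed between the sexes for 9 gene and comparison pairs (limma, adjusted p under 0.05). Between the tumour groups these were 8 of the 41 tested genes, against 23.6% of all tested genes, and for Apc/Tgif tumours and wild-type colon 1 of the 41, against 3.4%. For Apc/Tgif against Apc tumours, the log2 effect in males minus that in females was 4.57 for Il17a, 2.50 for Klrd1, 2.20 for Klrk1, 2.60 for Cd3g, 1.79 for Il2ra, 2.98 for Cd8b1, 1.46 for Il2rb and 1.54 for Cd2. With wild-type colon as the reference for Apc/Tgif tumours it was -4.40 for Gzma, which held 3.79 to 7.83 normalized counts in wild-type females and 22.8 to 100.6 in the 2 wild-type males.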

How the results depend on the processing

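No paired analysis was possible because each library is a different mouse and the labels pair none of them. The replicate numbers used here only name libraries. The number of genes that rose in Apc tumours, 7, was 2 in males alone. The number that fell, 14, was 7 with a filter of 50 normalized counts and 4 in females alone. For Apc/Tgif tumours and wild-type colon, the 5 that rose became 8 with quantile normalization, 8 with sample weights and 3 in males alone, and the 9 that fell became 5 with the filter of 50, 4 with quantile normalization and 4 in males alone. Between the tumour groups the 1 higher gene became 0 with the filter of 50, equal totals, only 2 groups or females alone, 3 with quantile normalization, 4 with sample weights and 10 in males alone. The 2 lower genes became 1 with no filter, quantile normalization, sample weights or only 2 groups, 7 among females and 0 among males. The causes were not tested. Leaving out 1 library gave 4 to 8, 12 to 18, 5 to 7, 7 to 11, 0 to 3 and 1 to 2 genes for these 6 counts in the same order. The count of 7 became 4 in 6 of the 19 fits that left out 1 library. These were the fits without wild-type replicate 1 or 3, or without Apc replicate 1, 2, 3 or 4.

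Further calls were lost in 1 sex alone. In males these were Ctla4 (0.70), Cd7 (-1.67), Cd160 (-0.92) and Cd28 (-1.01) in Apc/Tgif tumours and Thy1 (-0.64) between the tumour groups, and in females Cd160 (-0.98) in Apc tumours and Cd69 (-0.92) and Skap1 (-0.82) in Apc/Tgif tumours. With quantile normalization Cd160 (-0.65) and Skap1 (-0.58) in Apc/Tgif tumours were not called.

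Values that changed sign were those of Cd3e against wild-type colon, 0.13 in Apc tumours in females alone and 0.0692 in Apc/Tgif tumours with quantile normalization, and of Gzma, -0.26 and -1.49 in males alone. Between the tumour groups in females alone they were Cd3e (-0.23), Cd8a (-0.45), Foxp3 (-0.71) and Gzma (1.23), and Il17a was 0.84 among males. Gzma between the tumour groups was -0.46 to 0.24 when 1 library was left out, above 0 without Apc replicate 2 (0.01), Apc replicate 5 or Apc/Tgif replicate 5. The Cd3e to Ptprc ratio of Apc tumours against wild-type colon was -0.00233 with 0.5 added, and -0.10 to 0.12 when 1 library was left out. The Cd8a to Cd4 ratio between the tumour groups was -0.308 to 0.0368 when 1 library was left out. Equal totals moved the median of all genes to 0.19 in Apc and 0.15 in Apc/Tgif tumours.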

Other observations

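Among lists of other cells, 4 of 10 macrophage genes rose in Apc tumours and 8 of 10 in Apc/Tgif tumours, and 4 were higher in Apc/Tgif than in Apc tumours, C1qa, Csf1r, C1qb and Adgre1. Over all tested genes 23.9% and 24.8% rose, and 7.88% were higher in Apc/Tgif than in Apc tumours. Of 12 mast cell genes, 6 were higher in Apc/Tgif than in Apc tumours and 1, Kit, was lower. All 6 genes of enteric neurons and glia fell in each tumour group, and their sum was 1227 to 2311 normalized counts in wild-type colon, 141 to 216 in Apc tumours and 71.9 to 170.2 in Apc/Tgif tumours.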
